A study of Mus musculus with 9 samples.

Results

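Proteasome subunit genes were followed in AML12, a mouse hepatocyte line established from a liver carrying a transforming growth factor alpha transgene, under fatty acid loading with and without the peptide Ang(1-7). Members were all genes whose symbol starts with Psm, a letter from a to g and a digit, and 44 of the 10259 genes in the table that sets the peptide-treated cells beside the fatty acid-loaded cells met this rule. The series holds 9 RNA sequencing libraries. The 3 Ang(1-7) libraries came from cells given 100 nM Ang(1-7), and after 30 min 0.2 mM PA with 0.4 mM OA for 24 h. The 3 PA/OA libraries came from cells given 0.2 mM PA with 0.4 mM OA for 24 h, and the 3 control libraries came from cells given no treatment. PA and OA are the usual short forms of palmitic and oleic acid. All groups were grown in the same medium with fetal bovine serum. The labels name no group given only the carrier of the fatty acids and no group given the peptide alone, so fatty acids and their carrier cannot be told apart here. The labels do not say whether the 3 libraries of a group came from separate cultures, and p-values measure the spread between these libraries, which may be technical.

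The proteasome is the barrel-shaped protease that degrades proteins tagged with ubiquitin. Its core particle is a stack of rings of alpha subunits (Psma genes) around rings of beta subunits (Psmb genes), and Psmb5, Psmb6 and Psmb7 encode the beta subunits that cut peptide bonds. The regulatory particle that caps the core has a ring of ATPases (Psmc genes) that unfold substrates and non-ATPase subunits (Psmd genes) that bind and remove ubiquitin. Alternative activators are encoded by Psme genes, an inhibitor by Psmf1 and assembly chaperones of the core by Psmg genes. In mammalian cells with impaired proteasome activity, the transcription factor encoded by Nfe2l1 is known to raise many subunit genes together.

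The 44 members comprised 15 core genes (7 Psma and 8 Psmb), 20 regulatory genes (7 Psmc and 13 Psmd) and 9 others. The name rule took in Psmc3ip, which is named for an interaction with an ATPase and acts in meiotic recombination, and Psmd5, Psmd9 and Psmd10, which are assembly chaperones of the ATPase ring. The mouse annotation of RefSeq (GRCm38.p6) holds 51 protein-coding genes that match the rule. The other 7 (Psma8, Psmb8, Psmb9, Psmb11, Psmd2, Psme2 and Psme3ip1) were not among the listed genes under these symbols and have no values here. Each pair of groups has a table of its own, with 24588312 to 28704499 counts per library, and 40 members had values in the PA/OA and control table, 39 of them also in the Ang(1-7) and control table. Of 12 hepatocyte marker genes 9 had counts. Their summed level was 21108 to 23818 CPM (a gene's counts scaled to a fixed library total) in the 6 libraries given fatty acids. Nearly all of this sum was the keratin genes Krt8 and Krt18, at 9034.4 to 12849.5 CPM each. Trf lay at 597 to 840 CPM, Apob at 169 to 202 CPM and the albumin gene Alb at only 3.13 to 19.2 CPM. Cebpa, Fgb and Serpina1a were not among the listed genes. The second Ang(1-7) library stood apart from the other libraries, as described with the Ang(1-7) results, and counts, medians and the changes of named genes that it moves most are given with and without it.

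The promoters of 3 members carry the results below: Psmb6 and Psmc4 because they were the members that passed the test after fatty acid loading, and Psme4 because its levels lay on the other side of control. Each sequence is the 250 bases before the annotated transcription start, written 5′ to 3′ on the gene's strand, from RefSeq (GRCm38.p6). Capitals mark the pattern TGACNNNGC, the antioxidant response element bound by the Nfe2l1 family, and the pattern CCAAT, both searched on both strands, where matches of the 2 patterns may overlap.
Psmb6, chr11:70525107-70525356, plus strand: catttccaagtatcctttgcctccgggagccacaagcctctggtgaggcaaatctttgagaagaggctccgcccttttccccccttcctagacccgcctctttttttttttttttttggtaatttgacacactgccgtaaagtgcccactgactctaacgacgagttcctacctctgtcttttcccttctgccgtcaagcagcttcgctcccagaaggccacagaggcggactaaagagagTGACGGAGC
Psmc4, chr7:28050093-28050342, minus strand: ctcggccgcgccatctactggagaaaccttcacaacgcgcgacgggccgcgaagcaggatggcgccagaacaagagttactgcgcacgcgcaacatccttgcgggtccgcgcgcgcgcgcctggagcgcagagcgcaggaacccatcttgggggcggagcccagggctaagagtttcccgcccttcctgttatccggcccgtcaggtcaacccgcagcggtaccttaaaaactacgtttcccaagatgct
Psme4, chr11:30771525-30771774, plus strand: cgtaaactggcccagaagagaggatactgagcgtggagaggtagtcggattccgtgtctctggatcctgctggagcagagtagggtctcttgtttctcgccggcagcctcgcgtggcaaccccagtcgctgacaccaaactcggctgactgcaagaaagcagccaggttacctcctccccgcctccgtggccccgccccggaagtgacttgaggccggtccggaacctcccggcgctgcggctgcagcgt
The Psmb6 sequence ends in the only match among these sequences, TGACGGAGC, whose first base lies at position -9 from the start. Promoters of 37 members were matched, 39 in all since some genes have more than 1. The antioxidant pattern was in 5 of these 39 (12.8%; Psmb5, Psmb6, Psmc6, Psmd12 and Psmd9), against 10.2% of all 32851 promoters in the table. The CCAAT pattern was in 13 of 39 (33.3%), against 33.8% of all promoters. A match is a description of the letters and not evidence of binding.

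Transcript levels of the members spanned a wide range, and most of the structural subunits were abundant. In PA/OA cells the 24 members with 1 annotated RefSeq transcript had a median level of 402 CPM (1.41 to 821 CPM), and 2 of them, Psmb10 and Psme2b, lay under 20 CPM. The 19 tested members with several annotated transcripts had a median of 38.0 CPM (1.97 to 348 CPM), and 6 of them (Psma3, Psma4, Psma7, Psmc3ip, Psmd4 and Psmg3) lay under 20 CPM. Psma3, Psma4, Psma7 and Psmd4 encode subunits present in every standard proteasome. Counts were deposited per transcript, and how reads shared between transcripts were assigned is not given in the sources used here. Psma4 and Psmd4 were listed only through a predicted transcript. The part of this counting in the low values was not tested. The lower median of members with several transcripts is therefore not read as lower expression.

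Per kilobase of transcript, members with 1 annotated and 1 listed transcript could be set side by side in PA/OA cells. The 4 ATPase genes of this kind lay close together, between 300 CPM per kb (Psmc3) and 362 CPM per kb (Psmc4), a ratio of 1.21. The 3 alpha genes lay between 187 (Psma2) and 288 CPM per kb (Psma1). The 4 beta genes were more spread, with Psmb5, the chymotrypsin-like catalytic subunit, lowest at 110 ± 13.3 CPM per kb and Psmb3, a non-catalytic subunit, highest at 579 ± 16.0 CPM per kb (SD, n = 3). The 9 non-ATPase genes ran between 21.7 CPM per kb (Psmd9, an assembly chaperone) and 444 CPM per kb (Psmd8). Psme1, a subunit of the activator induced by interferon gamma, stood at 81.5 CPM per kb and the core assembly chaperone gene Psmg1 at 47.8 CPM per kb. Psme2b, a close copy of Psme2 whose reads may be shared with that gene, was at 1.69 CPM per kb.

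**Figure D1:**
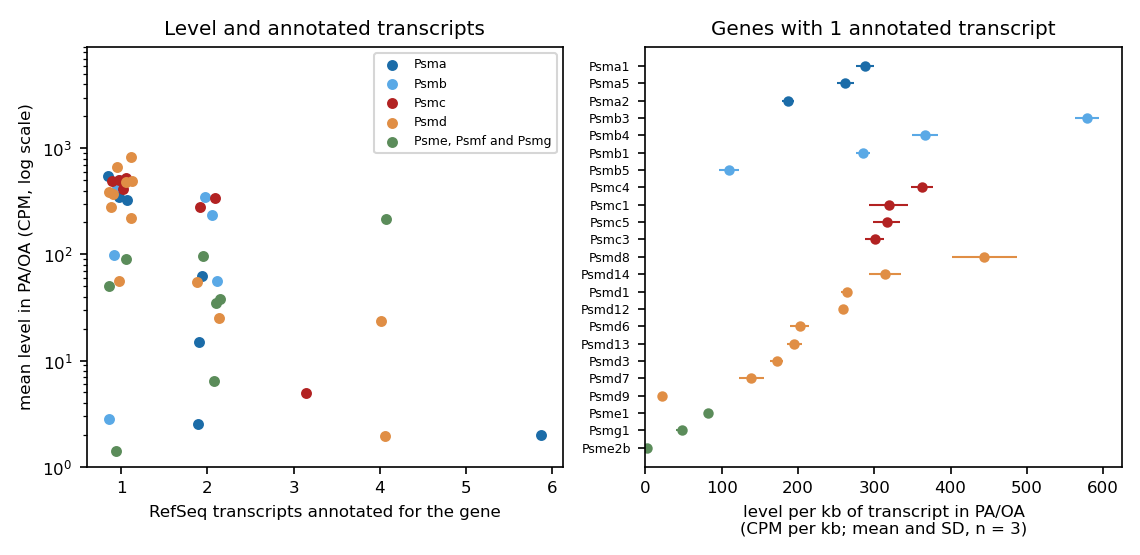
Transcript levels of proteasome genes in PA/OA cells. Left, mean level (CPM, log scale) against the number of RefSeq transcripts annotated for each gene, with points shifted sideways at random for legibility; right, CPM per kb of transcript for genes with 1 annotated and 1 listed transcript (points, mean; bars, SD, n = 3). The 4 Psmc genes on the right lie between 300 and 362 CPM per kb, while the 4 Psmb genes run between 110 and 579.

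After 24 h of fatty acids, transcripts of the catalytic gene Psmb6 and the ATPase gene Psmc4 fell slightly. Neither gene passed the test in every alternative fit. Of the 40 members tested in PA/OA cells against control, 2 fell and none rose at an adjusted p under 0.05 (edgeR quasi-likelihood test with Benjamini-Hochberg adjustment, 6213 genes tested). The 2 were Psmb6 and Psmc4, 5% of the members, where 2.24% of all genes were called lower and 2.82% were called higher. At an unadjusted p under 0.05, 8 members were lower and 1 was higher, against 8.92% and 10.5% of all genes. The 3 PA/OA libraries lay below all 3 control libraries in 10 members (25%), against 11.6% of all genes, and above them in 2 members (5%), against 12.2% of all genes. A log2 change below 0 was found in 31 of 40 members (77.5%), against 48% of all genes. The median log2 change of the members was -0.14, against 0.01 over all genes, and its quartiles were -0.17 and -0.04. The sum of the macrophage markers was 816, 694 and 674 CPM in PA/OA cells, against 626, 608 and 587 CPM in control cells. Of the 6 markers 3 were listed, and Ptprc, Adgre1 and Csf1r were not listed. Nearly all of the sum was Cd14, at 808, 690 and 667 CPM in PA/OA cells, against 623, 603 and 580 CPM in control cells. Cd68 and Lyz2 lay under 6 CPM in each of these libraries and overlapped between the groups. The part of these markers in the member values was not tested. In bulk RNA, fewer cells of a kind and less RNA per cell cannot be told apart.

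**Figure D2:**
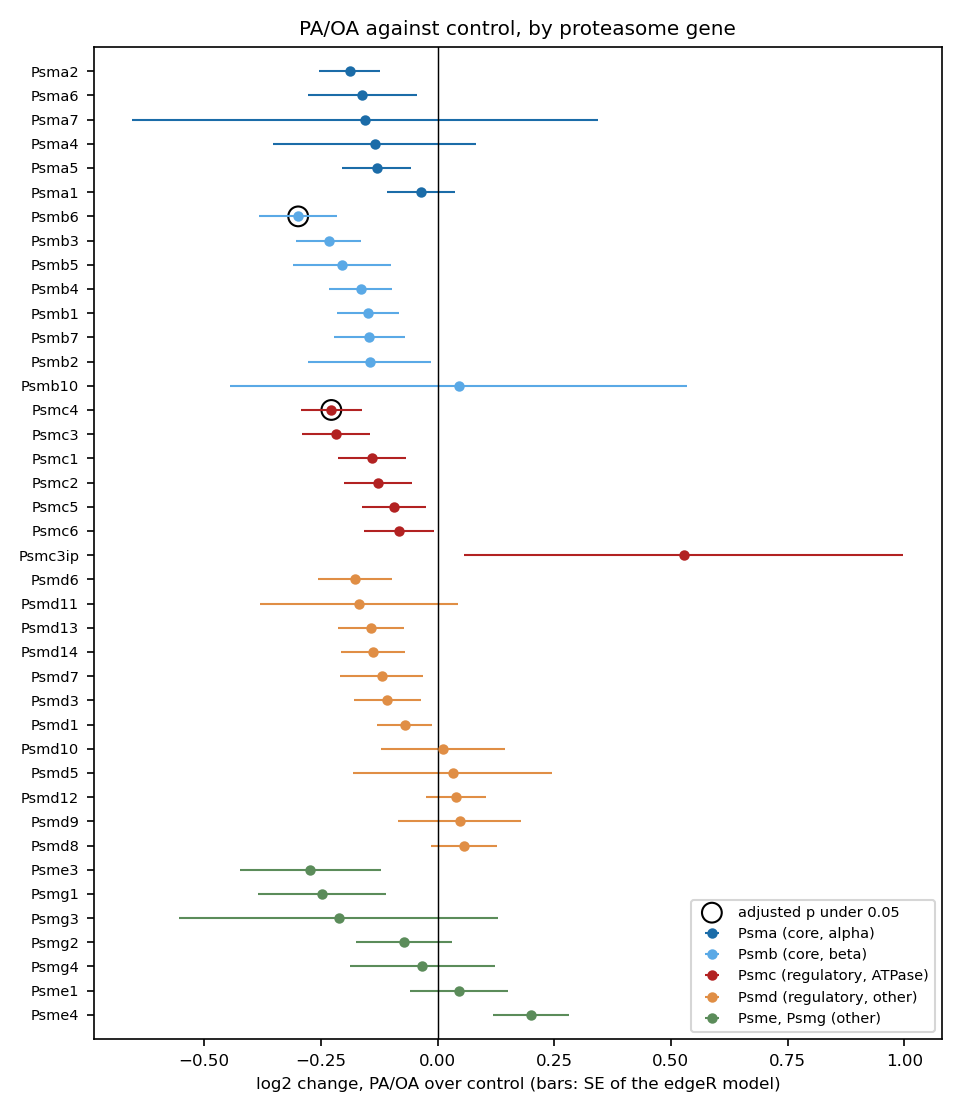
Log2 change of 40 proteasome genes in PA/OA cells over control cells, grouped by class (points, edgeR estimate; bars, SE; rings, adjusted p under 0.05). Changes of 31 members lie below 0, and Psmb6 at -0.30 and Psmc4 at -0.23 are ringed.

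Among the core genes, Psmb6, the caspase-like catalytic subunit, was at 362, 347 and 337 CPM in the PA/OA libraries, against 495, 402 and 388 CPM in the control libraries. The groups did not overlap, and the first control library was the highest of the 6. Psmb6 fell by 0.30 ± 0.08 on the log2 scale (SE, edgeR adjusted p = 0.0429). Its adjusted p was 0.0311 to 0.248 when each library was left out in turn, and it stayed under 0.05 in 2 of these 6 fits, without PA/OA 1 (0.0332) and without control 3 (0.0311). Over 15 alternatives its adjusted p was 0.0135 to 0.388. Without control 1 its log2 change was -0.18.

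The other catalytic genes lay on the same side of control without passing the test. Psmb5 was at 112, 93.7 and 90.5 CPM in PA/OA cells, against 118, 114 and 110 CPM in control cells, and the groups overlapped through the first PA/OA library (log2 -0.21 ± 0.11, edgeR adjusted p = 0.297). Psmb7, the trypsin-like subunit, was at 229, 232 and 245 CPM in PA/OA cells, against 271, 261 and 249 CPM in control cells (log2 -0.15 ± 0.08, edgeR adjusted p = 0.307). Its groups did not overlap, though the nearest libraries were only a few CPM apart. Psmb10, the inducible subunit that replaces the trypsin-like subunit in the immunoproteasome, was near the floor of these libraries. It was at 2.28, 2.26 and 2.83 CPM in PA/OA cells, against 1.74, 2.57 and 2.84 CPM in control cells. It was listed here only through a predicted transcript, so this level is not read as low expression.

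Psmb3 was at 454, 435 and 441 CPM in PA/OA cells, against 564, 492 and 507 CPM in control cells, with no overlap (log2 -0.23 ± 0.07, edgeR adjusted p = 0.0562). Of the alpha genes, Psma2 had the lowest p, at 538, 526 and 566 CPM in PA/OA cells, against 601, 604 and 652 CPM in control cells (log2 -0.19 ± 0.07, edgeR adjusted p = 0.104). Every PA/OA library was below every control library for this gene. Psma5 followed with 309, 328 and 337 CPM in PA/OA cells, against 378, 359 and 328 CPM in control cells, where the groups overlapped. All 6 alpha genes and 7 of 8 beta genes had a log2 change below 0, against 48% of all genes. The median over the 14 core genes was -0.15.

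Among the genes classed as regulatory by name, the 7 Psmc genes, with Psmc3ip among them, had a median log2 change of -0.13. Psmc4 was at 539, 503 and 524 CPM in PA/OA cells, against 616, 586 and 631 CPM in control cells. No PA/OA library reached the lowest control library, and Psmc4 fell by 0.23 ± 0.06 on the log2 scale (SE, edgeR adjusted p = 0.0450). Leaving out each library in turn gave an adjusted p of 0.0289 to 0.182, and the gene passed in 1 of 6 such fits, without PA/OA 1. Over 15 alternatives the adjusted p of Psmc4 was 0.0074 to 0.655. Psmc3 was at 497, 472 and 505 CPM in PA/OA cells, against 591, 512 and 612 CPM in control cells, with no overlap (log2 -0.22 ± 0.07, edgeR adjusted p = 0.0882). The groups also did not overlap for Psmc1 and Psmc2. In 4 of 7 Psmc genes every PA/OA library was thus below all control libraries, against 11.6% of all genes. The exception in sign was Psmc3ip, at 4.25, 2.46 and 5.28 CPM in PA/OA cells, against 2.55, 2.38 and 3.37 CPM in control cells.

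The median log2 change of the 12 Psmd genes was -0.09, and 7 of 12 were below 0, against 48% of all genes. None had all PA/OA libraries below control, against 11.6% of all genes. Psmd6, a lid subunit, had the lowest p of the class, with 269, 273 and 300 CPM in PA/OA cells, against 334, 331 and 287 CPM in control cells (edgeR adjusted p = 0.219). Psmd13, another lid subunit, was at 387, 371 and 407 CPM in PA/OA cells, against 445, 435 and 405 CPM in control cells. Psmd14, the deubiquitinase that strips ubiquitin chains at the pore, was at 451, 485 and 517 CPM in PA/OA cells, against 514, 548 and 538 CPM in control cells (log2 -0.14 ± 0.07, edgeR adjusted p = 0.278). For each of these genes at least 1 PA/OA library lay above the lowest control library. Psmd12, a lid subunit, was the 1 Psmd gene with all PA/OA libraries above control, at 491, 492 and 496 CPM in PA/OA cells, against 469, 485 and 485 CPM in control cells, and this difference was small (log2 0.04 ± 0.06).

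The activator genes did not share a direction. Psme4, whose product is a single-chain activator of the core, was at 201, 231 and 217 CPM in PA/OA cells, against 187, 191 and 188 CPM in control cells. Every PA/OA library was above every control library, with a log2 change of 0.20 ± 0.08 that did not pass (edgeR adjusted p = 0.173). Psme1 was at 86.5, 91.8 and 93.5 CPM in PA/OA cells, against 80.9, 89.3 and 93.3 CPM in control cells, and the groups overlapped. Psme3, which encodes the nuclear activator, was at 31.1, 36.7 and 43.5 CPM in PA/OA cells, against 42.4, 45.6 and 46.3 CPM in control cells (log2 -0.27 ± 0.15, edgeR adjusted p = 0.347; log2 -0.40 to -0.17 with each library left out in turn). The assembly chaperone gene Psmg1 was at 53.2, 41.6 and 54.8 CPM in PA/OA cells, against 61.2, 62.7 and 53.8 CPM in control cells (log2 -0.25 ± 0.14; -0.32 to -0.13 with each library left out in turn).

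Summed levels show the size of the shift in each library. Over the 39 members in all tables, put on the scale of counts shared by all 9 libraries, the sum was 10420, 10232 and 10549 CPM in PA/OA cells, against 11313, 11112 and 11398 CPM in control cells, a difference of -7.75%. The 13 core genes summed to 3359, 3421 and 3461 CPM in PA/OA cells, against 3924, 3761 and 3837 CPM in control cells (-11.1%). The 19 regulatory genes summed to 6547, 6275 and 6544 CPM in PA/OA cells, against 6882, 6825 and 7024 CPM in control cells (-6.58%). In these sums every PA/OA library was below every control library. The 7 other genes summed to 514, 536 and 544 CPM in PA/OA cells, against 507, 526 and 536 CPM in control cells (1.58%), where the groups overlapped.

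**Figure D3:**
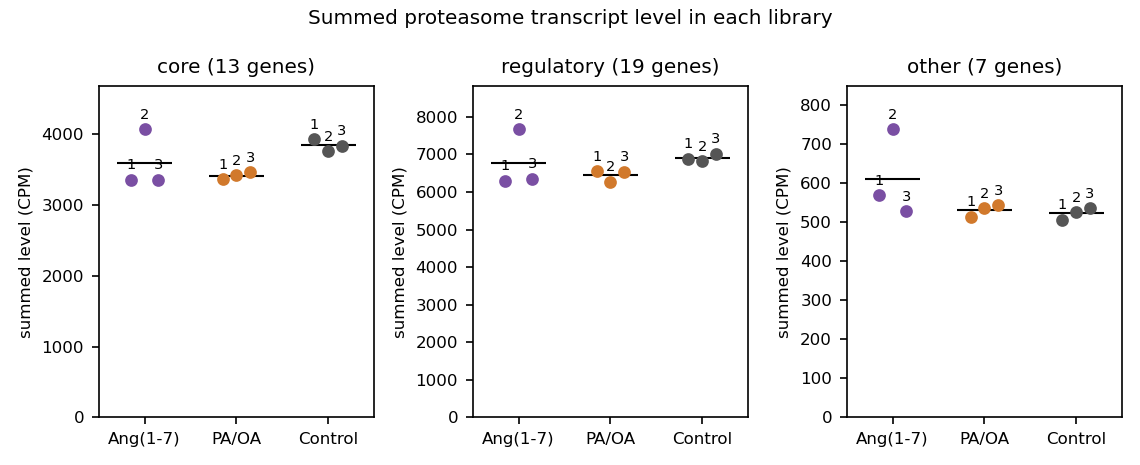
Summed level (CPM, axis from 0) of core, regulatory and other proteasome genes in each of 9 libraries (points numbered by replicate; lines, group means). Core sums are 3359 to 3461 CPM in PA/OA libraries and 3761 to 3924 CPM in control libraries, and the second Ang(1-7) library is the highest of the 9 in each panel.

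Transcript length moved with the change in PA/OA cells. The members' median transcript length was 1435 bases, against 2663 bases over all genes with a length, and longer transcripts had higher log2 changes (Pearson r across genes 0.24, over genes that are not independent and share the libraries). After correction for transcript length and GC content, an alternative chosen after seeing the data, 1 member of 38 was called, Psma2 (edgeR adjusted p = 0.0255; 0.0255 to 0.493 over 15 alternatives), where 5.76% of all genes were called. The members' median was then -0.11, against -0.04 over all genes, a gap of -0.06 in place of -0.15. Of the members 30 of 38 were below 0 (78.9%), against 57.0% of all genes.

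DESeq2 called 5 members lower in PA/OA cells, adding Psma2, Psmb3 and Psmc3 to Psmb6 and Psmc4, where it called 8.64% of all genes. Fitting all 9 libraries together called none of 39 members, where 33 of 6033 genes (0.547%) were called. In the authors' deposited table, whose test is not given in the sources used here, 18 of 42 member transcripts had an unadjusted p-value under 0.05 in PA/OA cells against control, 17 lower and 1 higher, against 23.3% of all 6936 transcripts.

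Ang(1-7) given before the fatty acids was not followed by a called change in any of the 43 members tested against PA/OA cells. No gene of 9261 was called in edgeR (0% higher and 0% lower), 236 genes (2.55%, 1.23% higher and 1.32% lower) had an unadjusted p under 0.05, and no member was among them. DESeq2 also called no member, and 5 genes in all. The Ang(1-7) libraries lay above all PA/OA libraries in 3 members (Psma6, Psmd12 and Psmg2), where 4.6% of all genes did so, and below them in 3 (Psma7, Psmb4 and Psmg4), where 6.37% did so. These shares, 6.98% each, are near those of all genes. The median log2 change of the members was 0.11, against -0.01 over all genes, and 13 of 43 were below 0 (30.2%, against 50.9% of all genes).

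The second Ang(1-7) library stood apart in these values. It held the highest of 6 values in 23 of 43 members (53.5%), against 29.4% of all genes, and the lowest in 9 members (20.9%), against 36.2% of all genes. Without it the median was 0.01, against 0.01 over all genes, and 21 of 43 members were below 0 (48.8%, against 48.6% of all genes). The median also depended on PA/OA 2, without which it was 0.03 over the members and 0.03 over all genes. The sign of the log2 change turned in 14 of 43 members without Ang(1-7) 2 and in 2 to 4 members without any other library. All 8 listed nervous system markers were above 0 in Ang(1-7) 2 and 3, against 3 of them in Ang(1-7) 1 and 2 of them in every PA/OA library. Their summed level was 126, 196 and 184 CPM in the Ang(1-7) libraries, against 131 to 138 CPM in the PA/OA libraries, where Gfap, Mog, Nefl, Nefm, Stmn2 and Tubb3 were at 0. Nearly all of the PA/OA sum was Mbp, at 132, 137 and 131 CPM in PA/OA cells, against 126, 109 and 138 CPM in Ang(1-7) cells. The largest of the others were Nefl, at 0, 32.2 and 18.2 CPM in the Ang(1-7) libraries, and Gfap, at 0.485, 30.9 and 14.4 CPM. Blood markers stood at 0, 4.01 and 2.44 CPM in the Ang(1-7) libraries, against 0 to 0.159 CPM in the PA/OA libraries. Their part in the member values was not tested. Ang(1-7) 3 shared these markers, and the summed member level was 10232, 12477 and 10239 CPM in Ang(1-7) 1, 2 and 3.

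The second library was not shifted alike in all members. It differed from the PA/OA mean by at least 0.5 on the log2 scale in 17 members, 11 up and 6 down, while Ang(1-7) 1 did so in 1 member and Ang(1-7) 3 in 2. Psmb2, a non-catalytic beta gene, was at 55.9, 130 and 47.5 CPM in Ang(1-7) cells, against 51.7, 65.5 and 50.4 CPM in PA/OA cells. The alpha gene Psma1 was at 327, 551 and 339 CPM in Ang(1-7) cells, against 332, 344 and 360 CPM in PA/OA cells. Without Ang(1-7) 2 the log2 change was -0.10 in place of 0.48 for Psmb2 and -0.04 in place of 0.23 for Psma1. The catalytic gene Psmb5 went the other way in that library, with 85.9, 54.6 and 103 CPM in Ang(1-7) cells, against 112, 93.0 and 90.7 CPM in PA/OA cells. Its log2 change was -0.28, and -0.05 without that library. In all 3 genes Ang(1-7) 1 and 3 were near or within the PA/OA range.

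By class, the second library was highest in 4 of 7 Psma genes, 3 of 8 Psmb genes, 4 of 7 Psmc genes and 7 of 13 Psmd genes, and lowest in 2, 3, 0 and 1 of them. The beta genes were split, since Psmb1, Psmb2 and Psmb3 were highest there and Psmb4, Psmb5 and Psmb6 lowest. Psmc4, which fell in PA/OA cells against control, was at 519, 770 and 516 CPM in Ang(1-7) cells, against 542, 499 and 525 CPM in PA/OA cells (log2 0.21 ± 0.16, edgeR adjusted p = 0.965). Without the second library its log2 change was -0.00042. Psmb6 was at 347, 312 and 350 CPM in Ang(1-7) cells, against 364, 344 and 338 CPM in PA/OA cells (log2 -0.05 ± 0.11).

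**Figure D4:**
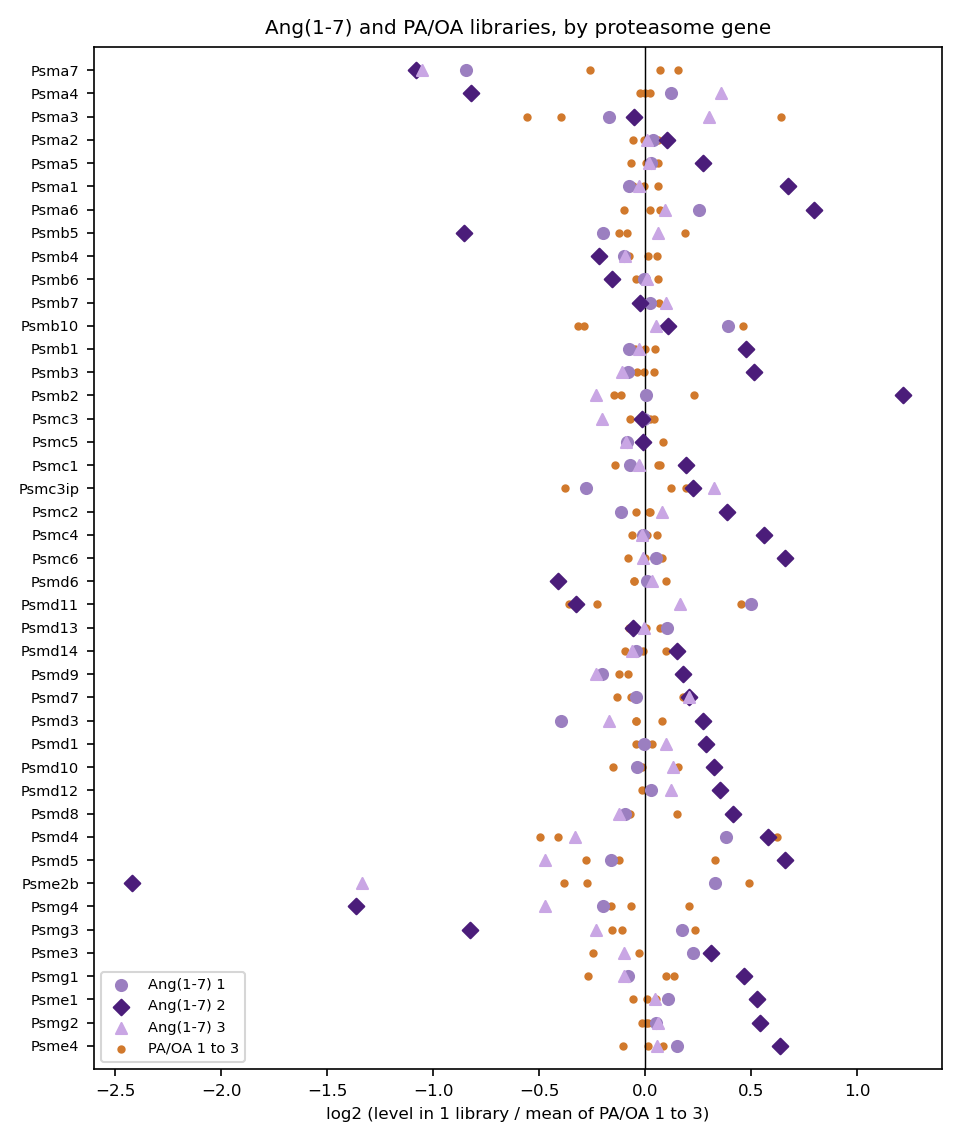
Log2 ratio of each library's level to the mean of the 3 PA/OA libraries for 43 proteasome genes (diamonds, second Ang(1-7) library; circles and triangles, Ang(1-7) 1 and 3; small points, PA/OA libraries). The second Ang(1-7) library is the farthest out for many genes and in both directions, as for Psmb2 on the right and Psmb5 on the left.

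The members of lowest p in this comparison had no adjusted p under 0.96 in edgeR. Psma6, an alpha subunit, was at 74.4, 109 and 66.5 CPM in Ang(1-7) cells, against 58.3, 63.4 and 65.6 CPM in PA/OA cells (log2 0.41 ± 0.20, and 0.19 without Ang(1-7) 2). Its groups did not overlap, by less than 1 CPM. Psma7 was at 1.42, 1.20 and 1.23 CPM in Ang(1-7) cells, against 2.68, 2.13 and 2.84 CPM in PA/OA cells (log2 -0.99 ± 0.51), and this value comes from a gene with several annotated transcripts and few counts. Psmg4, an assembly chaperone gene, was at 30.5, 13.6 and 25.3 CPM in Ang(1-7) cells, against 40.4, 31.3 and 33.4 CPM in PA/OA cells (log2 -0.60 ± 0.29, and -0.32 without Ang(1-7) 2).

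Psmb4 also had all Ang(1-7) libraries lower, at 404, 373 and 407 CPM in Ang(1-7) cells, against 412, 438 and 452 CPM in PA/OA cells. Psmc6, an ATPase, was at 353, 538 and 338 CPM in Ang(1-7) cells, against 322, 340 and 360 CPM in PA/OA cells. Psmd12 was at 502, 629 and 536 CPM in Ang(1-7) cells, against 494, 488 and 497 CPM in PA/OA cells, with every Ang(1-7) library above every PA/OA library. Psmd1, the scaffold of the base, was at 819, 1001 and 880 CPM in Ang(1-7) cells, against 826, 797 and 841 CPM in PA/OA cells. For Psmc6 and Psmd1 the second Ang(1-7) library was the highest and the groups overlapped. Without it the log2 change was 0.03 in place of 0.27 for Psmc6, 0.06 in place of 0.13 for Psmd1, 0.09 in place of 0.17 for Psmd12 and -0.09 in place of -0.14 for Psmb4.

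The activator Psme4 was at 242, 339 and 226 CPM in Ang(1-7) cells, against 203, 231 and 220 CPM in PA/OA cells (log2 0.30 ± 0.16, and 0.12 without Ang(1-7) 2). Psme1 was at 97.8, 131 and 93.6 CPM in Ang(1-7) cells, against 87.0, 91.1 and 93.8 CPM in PA/OA cells, and Psme3 was at 44.4, 47.1 and 35.4 CPM in Ang(1-7) cells, against 32.0, 37.2 and 44.7 CPM in PA/OA cells. All 3 activator genes overlapped between the groups, and the log2 change without Ang(1-7) 2 was 0.09 in place of 0.24 for Psme1 and 0.09 in place of 0.16 for Psme3. Psmd14 averaged 490 ± 40.7 CPM in Ang(1-7) cells and 484 ± 32.4 CPM in PA/OA cells, and Psmb7 averaged 241 ± 10.1 CPM in Ang(1-7) cells and 235 ± 9.18 CPM in PA/OA cells (SD, n = 3 each). Psmb10 averaged 3.19 ± 0.41 CPM in Ang(1-7) cells and 2.80 ± 0.91 CPM in PA/OA cells. The inhibitor gene Psmf1 was left out by the filter on low counts, with 9, 33 and 0 counts in Ang(1-7) libraries, against 40, 8 and 2 counts in PA/OA libraries. Standard errors of members at 100 CPM or more were 0.10 to 0.19 here, against 0.06 to 0.11 in PA/OA cells against control.

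The remaining members without control values were low in both groups. Psma3 had 45, 51 and 66 counts in Ang(1-7) libraries, against 39, 35 and 80 counts in PA/OA libraries. Psmd4, a ubiquitin receptor, had 65, 78 and 42 counts in Ang(1-7) libraries, against 78, 36 and 38 counts in PA/OA libraries. Psme2b had 45, 7 and 15 counts in Ang(1-7) libraries, against 30, 28 and 51 counts in PA/OA libraries. The groups overlapped in all 3 genes.

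Against untreated control, Ang(1-7) cells had no called member among 39 in edgeR, where 0.245% of 6134 genes were called higher and 0% lower. DESeq2 called none of the members, where it called 3.79% of all genes. At an unadjusted p under 0.05, edgeR gave 3 members lower (Psmb4, Psmb6 and Psmc3; 6.34% of all genes) and 1 higher (Psme4; 8.58% of all genes), and DESeq2 gave 6 members in either direction (17.0% of all genes). All 3 Ang(1-7) libraries lay below control in 8 members (20.5%), against 13.3% of all genes, and above it in 2 (5.13%), against 13.2% of all genes. The median log2 change was -0.04, against 0.02 over all genes. This comparison shares the Ang(1-7) libraries with the preceding one and the control libraries with the PA/OA one.

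The second Ang(1-7) library decided the count of called members in this comparison. Without it 7 members were called, 6 lower and 1 higher, where 10.2% of all genes were called, and the remaining pair of Ang(1-7) libraries had a median of -0.16 with 30 of 39 members below 0 (76.9%, against 48.9% of all genes). The lower ones were Psmb3 (log2 -0.33, edgeR adjusted p = 0.00715), Psmb4 (-0.27, adjusted p = 0.0179), Psmb6 (-0.30, adjusted p = 0.0450), Psmc3 (-0.32, adjusted p = 0.0196), Psmc4 (-0.24, adjusted p = 0.0246) and Psmd3 (-0.39, adjusted p = 0.00569). The higher one was Psme4 (log2 0.30, adjusted p = 0.0280). For each of the 7 this was the lowest adjusted p of 15 alternatives, and the highest ran between 0.535 (Psmb4) and 0.998 (Psmb3). With all 3 libraries, Psmd3, a lid subunit, was at 281, 436 and 326 CPM in Ang(1-7) cells, against 418, 406 and 369 CPM in control cells.

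Psme4 was the member with the largest positive log2 change among those at 100 CPM or more, at 239, 330 and 222 CPM in Ang(1-7) cells, against 186, 190 and 187 CPM in control cells. Every Ang(1-7) library was above every control library (log2 0.49 ± 0.15, edgeR adjusted p = 0.211). Psmb6 was at 347, 304 and 347 CPM in Ang(1-7) cells, against 493, 401 and 387 CPM in control cells (log2 -0.36 ± 0.12, edgeR adjusted p = 0.248). Psmb4 was at 404, 364 and 403 CPM in Ang(1-7) cells, against 487, 471 and 496 CPM in control cells (log2 -0.31 ± 0.09, edgeR adjusted p = 0.194). Neither beta gene overlapped between the groups. Psmc3 was at 488, 475 and 422 CPM in Ang(1-7) cells, against 588, 511 and 610 CPM in control cells, also with no overlap (log2 -0.30 ± 0.11, edgeR adjusted p = 0.267).

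Psmb5 was at 85.7, 53.2 and 102 CPM in Ang(1-7) cells, against 118, 113 and 109 CPM in control cells, and Psmb7 at 239, 226 and 249 CPM in Ang(1-7) cells, against 270, 260 and 248 CPM in control cells. Only the second of these overlapped. Psma2 was at 557, 569 and 541 CPM in Ang(1-7) cells, against 599, 601 and 650 CPM in control cells, with no overlap, and Psmc5, an ATPase, at 392, 403 and 387 CPM in Ang(1-7) cells, against 432, 434 and 462 CPM in control cells, with no overlap. Psmd12 was at 501, 613 and 531 CPM in Ang(1-7) cells, against 467, 483 and 484 CPM in control cells, all higher. Psmd6 was at 282, 205 and 284 CPM in Ang(1-7) cells, against 332, 330 and 286 CPM in control cells, and Psmg4 at 30.4, 13.3 and 25.1 CPM in Ang(1-7) cells, against 32.7, 35.4 and 39.0 CPM in control cells, both without overlap. Without Ang(1-7) 2 the log2 change was -0.27 in place of -0.50 for Psmb5, 0.11 in place of 0.20 for Psmd12, -0.16 in place of -0.30 for Psmd6 and -0.36 in place of -0.64 for Psmg4.

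Psmd14 averaged 484 ± 34.5 CPM in Ang(1-7) cells and 532 ± 17.6 CPM in control cells, and Psma6 averaged 82.0 ± 21.1 CPM in Ang(1-7) cells and 69.6 ± 2.37 CPM in control cells (SD, n = 3 each). Psme1 averaged 106 ± 18.7 CPM in Ang(1-7) cells and 87.5 ± 6.34 CPM in control cells, and Psme3 averaged 41.0 ± 5.70 CPM in Ang(1-7) cells and 44.6 ± 2.07 CPM in control cells. Psmb10 averaged 2.81 ± 0.76 CPM in Ang(1-7) cells and 2.37 ± 0.57 CPM in control cells. The groups overlapped for these 5 genes. Without Ang(1-7) 2 the log2 change was 0.01 in place of 0.24 for Psma6, 0.12 in place of 0.28 for Psme1, -0.19 in place of -0.12 for Psme3 and 0.43 in place of 0.24 for Psmb10. After the correction for length and GC content, no member was called, where 0.386% of all genes were called, and the median was 0.00, against 0.02 over all genes, with 18 of 37 members below 0 (48.6%, against 47.2% of all genes).

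Of 70 tested genes in 7 lists, from proteasome partners to stress genes, 2 rose in PA/OA cells against control and none fell. That is 2.86% of them called higher, where 2.82% of all genes were called higher. In PA/OA cells against control, none was called among 12 genes of proteasome transcription and maturation, 9 proteasome partners and chaperones, 11 ubiquitin and ubiquitin-activating enzyme genes, 17 ubiquitin shuttle and VCP genes and 4 interferon response genes. Of 10 genes of MHC class I antigen processing 1 rose, and of 8 genes of proteotoxic and oxidative stress 1 rose. The median log2 changes of these 7 lists were 0.02, 0.17, 0.01, 0.08, 0.14, 0.17 and 0.07 in the order named, against 0.01 over all genes.

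The riser in antigen processing was B2m, the light chain of MHC class I, at 563, 475 and 525 CPM in PA/OA cells, against 414, 459 and 402 CPM in control cells (log2 0.29 ± 0.08, edgeR adjusted p = 0.0286). Hmox1, the heme oxygenase induced by oxidative stress, was at 113, 106 and 97.1 CPM in PA/OA cells, against 89.3, 70.9 and 71.1 CPM in control cells (log2 0.45 ± 0.12, edgeR adjusted p = 0.0266). Neither gene overlapped between the groups. Zfand5, whose product activates the proteasome, was at 37.7, 61.4 and 44.8 CPM in PA/OA cells, against 29.4, 32.9 and 34.6 CPM in control cells (log2 0.57 ± 0.17, edgeR adjusted p = 0.0535). Pomp, the maturation chaperone of the core, chosen after its values were seen, was at 142, 132 and 157 CPM in PA/OA cells, against 166, 188 and 180 CPM in control cells (log2 -0.31 ± 0.09, edgeR adjusted p = 0.0548).

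Nfe2l1 itself was listed at under 10 CPM in every library, a level that depends on which of its transcripts a table lists and on how shared reads were assigned. It was at 6.30, 5.38 and 6.60 CPM in PA/OA cells, against 9.18, 5.33 and 9.16 CPM in control cells, with overlap (log2 -0.37 ± 0.33, edgeR adjusted p = 0.601). In the comparison of Ang(1-7) with PA/OA cells it was at 9.02, 3.24 and 8.81 CPM in Ang(1-7) cells, against 8.43, 7.27 and 8.01 CPM in PA/OA cells (edgeR adjusted p = 0.979). Against control it averaged 4.72 ± 3.25 CPM in Ang(1-7) cells and 7.86 ± 2.21 CPM in control cells (SD, n = 3 each; log2 -0.73 ± 0.64).

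No gene of the 7 lists was called in Ang(1-7) cells against PA/OA cells or against control in edgeR. Against PA/OA the genes of lowest p were Maff, a small partner of the Nfe2l1 family, at 22.9, 19.6 and 15.1 CPM in Ang(1-7) cells, against 35.7, 25.5 and 31.7 CPM in PA/OA cells, Akirin2 and Uba2. Akirin2, which directs proteasomes into the nucleus, was at 4.30, 2.07 and 3.57 CPM in Ang(1-7) cells, against 6.06, 8.08 and 7.00 CPM in PA/OA cells (log2 -1.09 ± 0.37, edgeR adjusted p = 0.965). Uba2, a SUMO-activating enzyme subunit, was at 168, 130 and 161 CPM in Ang(1-7) cells, against 186, 188 and 209 CPM in PA/OA cells. None of these 3 genes overlapped between the groups.

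Against control the genes of lowest p were Pdia3, Stub1 and Faf2. Pdia3, a disulfide isomerase of the peptide loading complex, was at 599, 662 and 536 CPM in Ang(1-7) cells, against 431, 456 and 391 CPM in control cells (log2 0.49 ± 0.11, edgeR adjusted p = 0.137). Stub1, a chaperone-linked ubiquitin ligase, was at 351, 308 and 308 CPM in Ang(1-7) cells, against 422, 422 and 436 CPM in control cells (log2 -0.40 ± 0.10, edgeR adjusted p = 0.140). Faf2, an adaptor of the VCP segregase, was at 86.3, 89.2 and 93.0 CPM in Ang(1-7) cells, against 64.2, 67.6 and 61.6 CPM in control cells (log2 0.47 ± 0.12, edgeR adjusted p = 0.150). The groups did not overlap in any of the 3 genes.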

How the data were processed

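Gene expression was measured by RNA sequencing of 9 AML12 libraries, 3 per group. The authors deposited, per pair of groups, a table of whole-number counts per RefSeq transcript with their own log2 fold change and unadjusted p-value columns. Per the submitters' processing notes, bcl2fastq, HISAT2 2.2.5 and HTSeq 0.11.2 were used. A human build stands in those notes, although the files list mouse transcripts. Neither the annotation release nor the counting options are stated. The tables hold 6936, 14553 and 6828 transcripts, and the same sample's counts were identical between tables.

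Counts were summed per gene symbol within each table and tested with edgeR 4.0.16 in R 4.3.3 (TMM scaling, filterByExpr, quasi-likelihood F test, Benjamini-Hochberg adjustment over all genes tested, threshold 0.05). The test was tried first on simulated data, whose changes were larger than any member's change in PA/OA cells against control. The genes tested numbered 6213 (PA/OA against control), 9261 (Ang(1-7) against PA/OA) and 6134 (Ang(1-7) against control), and the smallest p an exact permutation test of 3 against 3 can give is 0.1. The SE of a log2 change was derived from the test, as the absolute log2 change divided by the square root of its F value. CPM use TMM-scaled library sizes, apart from marker sums, which use total counts. Depth was 24588312 to 28704499 counts per library, and the biological coefficient of variation was 22.4%, 44.3% and 30.7% in the same order of comparisons. Transcript lengths came from GENCODE vM21 transcripts paired with RefSeq, and promoters from RefSeq GRCm38.p6.

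Members and the 7 lists were chosen with earlier results of these data known. Genes named with values were the called members, the 2 of lowest p per class and Psmd14. The catalytic, immunoproteasome, activator and inhibitor genes were named where listed. Of the other lists, the 3 of lowest p per comparison and Nfe2l1 were named. Members beyond this rule were named where a count or 1 library turned on them, after their values were seen. Alternatives were DESeq2 1.42.0, limma-voom 3.58.1, DESeq2 size factors, no filter on low counts, a replicate block, curated or shared transcripts only, all 9 samples in 1 fit, each replicate left out, and, chosen after seeing the data, a correction for length and GC content.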

Additional observations from a re-analysis of the deposited data

How the results depend on the processing

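The count of called members in PA/OA cells against control was 2, where 5.05% of all genes were called. It was 5 with DESeq2 (8.64% of all genes) and 3 with curated transcripts only (adding Psmb3, where 6.60% of all genes were called). It was 0 with all 9 samples in 1 fit (0.547%) and 1 with the correction for transcript length and GC content (5.76%). The cause was not tested. Leaving out each replicate gave 0 to 3 called members, with 3 without PA/OA 1, where 6.39% of all genes were called. The count was 0 without PA/OA 2 (2.37% of all genes), without PA/OA 3 (2.16%) or without control 1 (1.59%). It was 1 without control 2 (Psmc3, with 3.64% of all genes) or without control 3 (Psmb6, with 3.22%). The members' median stayed between -0.14 and -0.11 over 15 alternatives, with 29 to 34 members below 0. Ang(1-7) against PA/OA gave 0 called members in all 14 alternatives. The length correction was not run there, where 75.6% of genes had a length. That share was 84.1% in PA/OA against control and 84.4% in Ang(1-7) against control. Ang(1-7) against control gave 0 to 7 when each replicate was left out. It gave 7 without the second Ang(1-7) library, where 10.2% of all genes were called and the members' median was -0.16. In the other 14 alternatives it gave 0. Leaving out a replicate turned the sign of 11 of 40 members in PA/OA against control, 20 of 43 in Ang(1-7) against PA/OA and 15 of 39 in Ang(1-7) against control. Of the genes chosen by the naming rule 6 were among them. In PA/OA against control the log2 change of Psmb10 ran over -0.14 to 0.19 (-0.07 without PA/OA 3, -0.14 without control 1) and that of Psme1 over -0.010 to 0.091 (lowest without control 1). In Ang(1-7) against PA/OA the ranges were -0.099 to 0.73 for Psmb2, -0.079 to 0.014 for Psmb6, -0.00042 to 0.30 for Psmc4 and -0.042 to 0.067 for Psmd14, with the turned value without the second Ang(1-7) library in each and also without PA/OA 1 for Psmd14 (-0.024). Samples with the same number did not deviate together (correlations -0.04 to 0.03). The fit with the replicate block gave 2, 0 and 0 called members in the 3 comparisons, where 4.88%, 0% and 0.163% of all genes were called.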
